A study of Mus musculus with 308 samples.

Results

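Glutathione transferases join glutathione to electrophilic compounds, and 10 genes of the alpha, pi, theta, omega, kappa and microsomal classes were followed here: Gsta2, Gsta3, Gsta4, Gstp1, Gstt1, Gstt2, Gstt3, Gsto1, Gstk1 and Mgst1. A probe set was taken as a member when 1 of these symbols was its only gene symbol in the array annotation. This gave 12 of the 28898 probe sets with a single symbol, and they covered 9 of the 10 genes. Gsta2 (1421040_PM_a_at and 1421041_PM_s_at), Gsto1 (1416531_PM_at and 1456036_PM_x_at) and Mgst1 (1415897_PM_a_at and 1415898_PM_at) had 2 probe sets each, and no probe set carried Gsta3 alone. The others were Gsta4 1416368_PM_at, Gstp1 1449575_PM_a_at, Gstt1 1418186_PM_at, Gstt2 1417883_PM_at, Gstt3 1423891_PM_at and Gstk1 1452823_PM_at.

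The study asked how fumarate esters change gene expression in organs of C57BL/6 mice, on 308 Affymetrix HT MG-430 PM arrays. Mice were dosed daily over 10 days, and organs were collected 12 h after the final dose. The vehicle was 0.8% HPMC (hydroxypropyl methylcellulose), and the 4 treatments were dimethyl fumarate at 100 mg/kg (DMF100) or at 179.2 mg/kg (DMF179.2), monoethyl fumarate as mixed calcium, magnesium and zinc salts at 79.2 mg/kg (MEF79.2), and DMF100 given together with MEF79.2 (the combination). Another group is labelled Nav, a name the labels do not explain, and its dosing was not taken as known. No genotype other than the strain is named, and the ages of the mice are not given in the sources used here. The tissues were jejunum (43 arrays), kidney (46), mesenteric lymph node (MLN, 44), inguinal lymph node (ILN, 44), spleen (47), whole blood (38) and brain (46), with 5 to 8 arrays per group. Whether an array held RNA from 1 mouse is not stated, so p-values measure the spread between these samples. All comparisons with vehicle in a tissue share the same vehicle arrays.

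The soluble transferases of the alpha, pi, theta, omega and kappa classes differ in the substrates they prefer, and Mgst1 sits in membranes of the endoplasmic reticulum and mitochondria. Dimethyl fumarate carries a methyl ester on both of its carboxyl groups, monoethyl fumarate carries a single ethyl ester, and fumarate esters are themselves electrophiles that react with thiols such as glutathione. The transcription factor NRF2, released when its inhibitor KEAP1 is modified by electrophiles, binds antioxidant response elements and raises the transcription of several transferases in gut, liver and kidney.

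Promoter sequences are shown for 3 members on which the results turn: Gsta2, which rose on both of its probe sets in jejunum, Gstp1, which rose under all 4 treatments in kidney, and Mgst1, the member that rose in brain. They are RefSeq sequences of assembly GRCm38.p6, from 250 bases before to 50 bases after the annotated start, written along the gene's strand, and this assembly was used for sequence and not for the array values. Capitals mark matches on either strand to TGANNNNGC, the core of the antioxidant response element. A longer form, TGAC followed by 3 free bases and GCA, was also counted on both strands, and its matches may overlap those of the core.
Gstp1 (chr19:4037863-4038162, minus strand): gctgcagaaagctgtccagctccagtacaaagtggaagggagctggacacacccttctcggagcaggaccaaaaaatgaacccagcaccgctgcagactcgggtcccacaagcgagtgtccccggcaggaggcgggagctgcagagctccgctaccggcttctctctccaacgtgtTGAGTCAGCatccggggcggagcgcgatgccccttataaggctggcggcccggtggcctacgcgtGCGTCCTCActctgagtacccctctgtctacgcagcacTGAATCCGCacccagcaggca
Gsta2 (chr9:78347096-78347395, minus strand): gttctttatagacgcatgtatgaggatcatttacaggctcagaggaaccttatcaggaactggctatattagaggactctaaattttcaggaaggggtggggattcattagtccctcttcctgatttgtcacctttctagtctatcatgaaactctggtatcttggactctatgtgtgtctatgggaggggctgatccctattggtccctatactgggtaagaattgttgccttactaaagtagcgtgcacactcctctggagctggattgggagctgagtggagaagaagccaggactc
Mgst1 (chr6:138140277-138140576, plus strand): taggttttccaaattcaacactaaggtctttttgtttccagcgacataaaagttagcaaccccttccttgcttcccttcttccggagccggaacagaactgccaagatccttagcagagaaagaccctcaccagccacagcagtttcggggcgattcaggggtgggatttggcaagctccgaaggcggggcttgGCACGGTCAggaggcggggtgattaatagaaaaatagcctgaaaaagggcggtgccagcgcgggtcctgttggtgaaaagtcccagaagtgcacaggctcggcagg
The Gstp1 window held 3 matches to TGANNNNGC, with their first bases at -74, -9 and 30 from the start. The Gsta2 window held 0 and this Mgst1 window held 1, at -56. Among all 32851 promoters of this length, 41.3% held TGANNNNGC and 3.04% held the longer form, so a match to the core is common. Of the 10 genes, 8 had an entry, and these 8 gave 10 entries. Gstt1 held 1 match, each of the entries of Gstt3 held 1, and Gstk1, Gsto1 and the other Mgst1 start held 0. The longer form was found in Gsta3 alone, which has no probe set of its own. A match describes the letters of the window and was not tested as a binding site.

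Values are the deposited log2 expression values, and differences are log2 fold changes with their standard error (SE) from limma. A change counted as called where its p, adjusted by Benjamini-Hochberg, was under 0.05 over all single-symbol probe sets tested in that tissue. The number of arrays limits the precision. Each tissue had its own lowest value, between 2.08 and 2.27, which held 18.48 to 23.34% of its values, so levels are set between tissues only as percentiles. Defining markers of the labelled tissue lay above the detection filter in vehicle arrays for 9 of 9 enterocyte genes in jejunum, 8 of 8 proximal tubule genes in kidney, and all 7 B cell genes in spleen and in both lymph nodes. Spiked hybridisation controls were lower than in vehicle by 0.08 to 0.202 in every other group of jejunum. In kidney they differed from vehicle by -0.044 to 0.235. The jejunum vehicle arrays (11.723 to 11.806) did not overlap those of DMF100 (highest 11.67), DMF179.2 (11.693) or the combination (11.629). There this signal and these treatments cannot be told apart. With it as a covariate, calls over all jejunum probe sets went from 152 to 94 under DMF100, from 4775 to 1523 under DMF179.2 and from 603 to 66 under the combination. In bulk tissue, a change in the number of cells of a type and a change in RNA per cell cannot be told apart.

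In vehicle arrays the family members had distinct tissue patterns. Gstp1, the pi class enzyme, stood between the 98.3rd and the 99.5th percentile of all probe sets in each of the 7 tissues. Gsta2, an alpha class enzyme of detoxifying epithelia, stood at the 99.2nd (1421040_PM_a_at) and 99.4th percentile (1421041_PM_s_at) in kidney. In jejunum the same probe sets stood at the 47.5th and the 91.3rd percentile. Across all 308 arrays, 1421041_PM_s_at was at the lowest value of its tissue in 172. In blood it stood at the 57.8th and 1421040_PM_a_at at the 72.2nd percentile, and neither was tested in brain, spleen or the lymph nodes, where they did not pass the filter.
Gsta4, the alpha class enzyme with a preference for the lipid peroxidation product 4-hydroxynonenal, ranged from the 44.1st percentile in blood to the 99.2nd in kidney, with brain at the 95.5th. Theta class enzymes act on small halogenated compounds and peroxides. Among them, Gstt1 ranged from the 60.5th to the 97.1st percentile and Gstt2 from the 44.5th to the 96.8th. Gstt3 passed the filter only in kidney (77.6th) and jejunum (75.5th), and was as low as the 8.39th percentile elsewhere. Gsto1, an omega class thioltransferase and dehydroascorbate reductase, stood between the 79th and 97th percentile on 1416531_PM_at. Gstk1, a kappa class enzyme of mitochondria and peroxisomes, stood between the 72.1st and 98.1st. Mgst1 ranged from the 77.5th to the 97.7th percentile on 1415897_PM_a_at. Its other probe set, 1415898_PM_at, was at the lowest value in 306 of 308 arrays, with a highest value of 2.27, and was tested in no tissue.

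**Figure D1:**
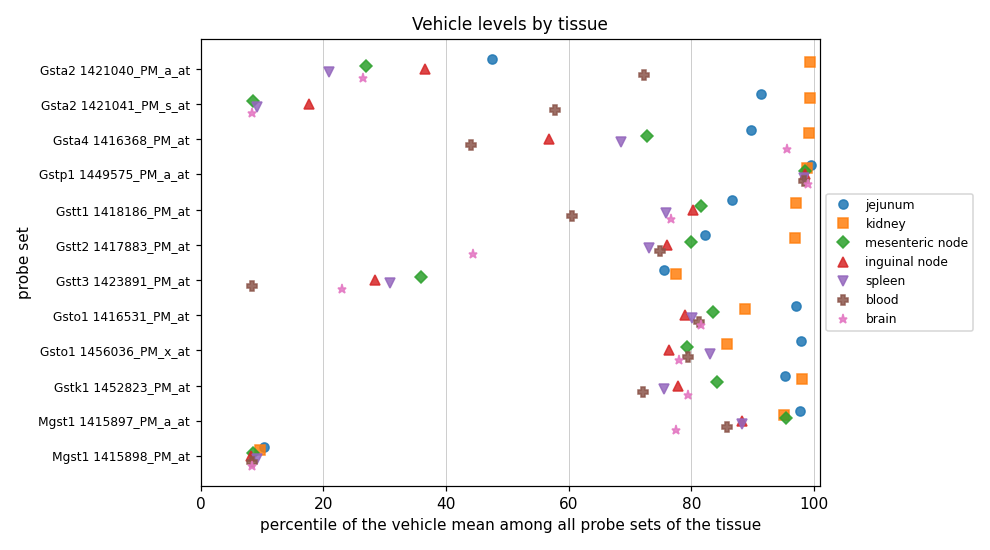
Percentile of the vehicle mean of each member probe set among all probe sets of a tissue (0 to 100), by tissue. Gstp1 lies above the 98th percentile in all 7 tissues, whereas Gsta2 is near the top in kidney and near the middle (1421040_PM_a_at) in jejunum.

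Over the 4 treatments and 7 tissues, 248 pairs of a member probe set and a treatment were tested against vehicle, of which 58 rose and 1 fell. Kidney had 23 of 44 such pairs called higher and jejunum 22 of 44. In MLN 7 of 32 rose and 1 fell, in spleen 5 of 32 rose, and in brain 1 of 28 rose. Over all probe sets, the share that rose under a treatment ran from 4.15 to 16.8% in kidney and 0.0536 to 14.6% in jejunum. It ran from 1.3 to 7.55% in MLN, 0 to 15.4% in spleen and 0.196 to 0.551% in brain, and 0.504 to 3.68% fell in MLN. No pair was called by limma in ILN (32 tested) or blood (36 tested). Without adjustment, 6 pairs in ILN, 3 in blood and 10 in brain were higher at a p under 0.05. Gstt2 rose in none of the 6 tissues in which it was tested. By probe set, Gsta4 (10 rises) and Gstp1 (9 rises) had the most. The 2 probe sets of Gsta2, tested in 3 tissues, had 6 rises each, and those of Gsto1 had 7 and 3.

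**Figure D2:**
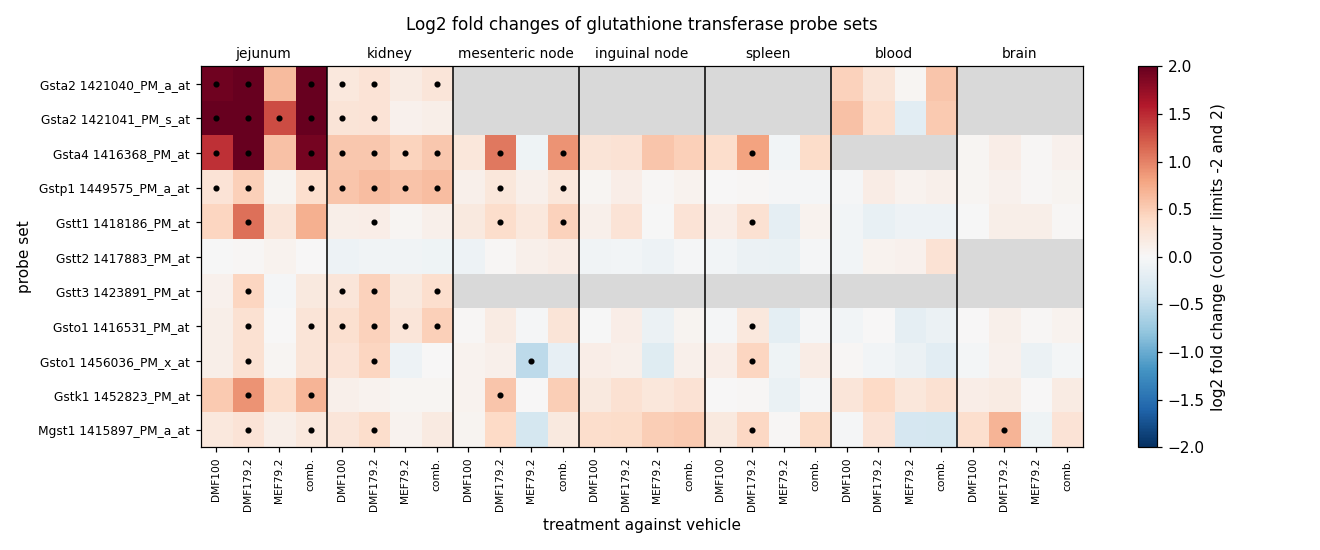
Log2 fold change against vehicle for each member probe set (rows) under each treatment in each tissue (columns), with colour limits at -2 and 2. Black dots mark an adjusted p under 0.05 and grey cells were not tested. The dots mark 22 of 44 jejunum and 23 of 44 kidney cells, and jejunum holds the strongest colours. Over all probe sets, 0.0536 to 14.6% rose per treatment in jejunum and 4.15 to 16.8% in kidney.

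In jejunum the alpha class enzymes rose most. Under DMF179.2, 10 of 11 tested member probe sets rose, against 14.6% of all 16778 probe sets. Under DMF100 4 of 11 rose (0.596% of all), under the combination 7 of 11 (1.93%) and under MEF79.2 1 of 11 (0.0536%). The median log2 change over the members was 0.268 with DMF100, 0.471 with DMF179.2, 0.114 with MEF79.2 and 0.34 with the combination, where the medians over all probe sets were -0.00241, 0.00652, -0.0117 and 0.000441.
On Gsta2 1421040_PM_a_at the 8 vehicle arrays had a lowest, median and highest log2 value of 3.62, 4.77 and 5.07. DMF100 arrays had 5.61, 6.36 and 7.41 (n = 6), and DMF179.2 arrays 7.66, 9.05 and 10.22 (n = 7). Every array of these treatments lay above every vehicle array. Combination arrays had 5.64, 7.60 and 9.24 (n = 8), again without overlap, and MEF79.2 arrays had 3.75, 4.98 and 7.11 (n = 7), which overlapped vehicle. The log2 change was 1.95 ± 0.468 under DMF100 (limma, adjusted p = 0.0252), 4.52 ± 0.448 under DMF179.2 (adjusted p = 9.3e-10) and 2.97 ± 0.433 under the combination (adjusted p = 1.38e-05). The vehicle mean of 4.54 lay below the 50th percentile, so that the probe set passed the filter through its treated arrays, and these differences are not exact folds. Its p-values and its place in the counts of called members carry that selection, so they give no support of their own. The MEF79.2 change of 0.63 was not called (limma, adjusted p = 0.616).
The DMF100 call on 1421040_PM_a_at ended when DMF100 replicate 14 was left out (1.762, adjusted p = 0.0987), and also without DMF100 replicate 9 (1.795), vehicle replicate 1 (1.816) or vehicle replicate 3 (1.82). It also ended with no filter (1.947, limma, adjusted p = 0.0579) and with the hybridisation control signal as a covariate (2.369, adjusted p = 0.0662), where the change itself was as large or larger.
The other Gsta2 probe set, 1421041_PM_s_at, had vehicle values of 9.80, 10.38 and 11.43. Values were 12.35, 12.81 and 13.04 under DMF100, and 12.93, 13.31 and 13.44 under DMF179.2. The combination gave 12.60, 13.06 and 13.39, and MEF79.2 gave 10.74, 11.95 and 12.37. Again only the MEF79.2 arrays overlapped vehicle, with 5 of 7 above the highest vehicle array. The log2 changes were 2.25 ± 0.278 (DMF100, limma, adjusted p = 8.65e-07), 2.81 ± 0.267 (DMF179.2, adjusted p = 3.46e-10), 1.30 ± 0.267 (MEF79.2, adjusted p = 0.0406) and 2.53 ± 0.257 (combination, adjusted p = 4.4e-09). The MEF79.2 call ended when any 1 of 12 arrays was left out, with changes of 1.206 to 1.305 and adjusted p up to 0.128. These arrays were MEF79.2 replicates 25, 26, 27, 28 and 30, vehicle replicates 1, 2, 3, 5 and 8, DMF100 replicate 13 and DMF179.2 replicate 18. The same call ended with no filter (limma, adjusted p = 0.0817) and with groups compared alone (adjusted p = 0.0927). It also ended with probe sets averaged (0.9662, limma, adjusted p = 0.18) and with the hybridisation control covariate (1.226, adjusted p = 0.126). An s_at probe set can hybridise to near-identical transcripts, and alpha class genes are close paralogs, so this value may include other alpha class transcripts.
Gsta4 had vehicle values of 9.87, 10.15 and 10.64. It reached 11.05, 11.68 and 11.98 under DMF100 and 11.87, 12.69 and 12.98 under DMF179.2, while the combination gave 11.68, 12.18 and 12.42. None of these arrays overlapped vehicle, whereas MEF79.2 arrays (10.14, 10.64 and 11.28) did. Its log2 change was 1.47 ± 0.237 (DMF100, limma, adjusted p = 0.000157), 2.38 ± 0.227 (DMF179.2, adjusted p = 3.62e-10), 1.92 ± 0.219 (combination, adjusted p = 7e-08) and 0.58 ± 0.227 (MEF79.2, adjusted p = 0.294).

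Gstp1 rose in jejunum by small amounts that stood clear of the replicate spread. Vehicle arrays lay at 13.08, 13.19 and 13.39, DMF100 arrays at 13.40, 13.47 and 13.54, DMF179.2 arrays at 13.55, 13.73 and 13.76, and combination arrays at 13.43, 13.54 and 13.69. Each of these treated arrays was above the highest vehicle array. The log2 change was 0.27 ± 0.0462 (DMF100, limma, adjusted p = 0.000465), 0.47 ± 0.0443 (DMF179.2, adjusted p = 2.7e-10) and 0.34 ± 0.0428 (combination, adjusted p = 6.51e-07). Under MEF79.2 it was 0.05, with a 95% interval of -0.04 to 0.14. Gstp1 has a near-identical neighbour, Gstp2, and their transcripts may share this probe set.
The theta class was uneven. Gstt1 vehicle arrays lay at 9.12, 9.71 and 10.23 and DMF179.2 arrays at 9.90, 10.88 and 11.26, with 6 of 7 above the highest vehicle array. Its change of 1.10 ± 0.23 was called (limma, adjusted p = 0.00068), while 0.72 ± 0.222 under the combination (adjusted p = 0.0589) and 0.42 ± 0.24 under DMF100 (adjusted p = 0.6) were not. Gstt3 lay at 7.95, 8.14 and 8.30 in vehicle and at 8.40, 8.52 and 8.82 under DMF179.2, without overlap, a change of 0.42 ± 0.0681 (limma, adjusted p = 3.21e-05). Gstt2 ranged from -0.01 to 0.08 over the 4 treatments, with 95% intervals between -0.16 and 0.22.
Gstk1 lay at 10.91, 11.32 and 11.83 in vehicle and at 11.95, 12.31 and 12.57 under DMF179.2, where no array overlapped. The change was 0.90 ± 0.153 (DMF179.2, limma, adjusted p = 6.68e-05) and 0.68 ± 0.148 (combination, adjusted p = 0.00624). Gsto1 1416531_PM_at rose by 0.31 ± 0.056 under DMF179.2 (limma, adjusted p = 0.000145), from 11.67, 11.91 and 11.96 in vehicle to 12.00, 12.21 and 12.33, and by 0.25 ± 0.0541 under the combination (adjusted p = 0.00497). Its other probe set, 1456036_PM_x_at, gave 0.30 ± 0.0816 (DMF179.2, limma, adjusted p = 0.00558) and 0.26 ± 0.0788 (combination, adjusted p = 0.0575). Mgst1 lay at 11.84, 12.12 and 12.32 in vehicle and 12.29, 12.34 and 12.46 under DMF179.2, where 6 of 7 arrays were above vehicle. It rose by 0.27 ± 0.0577 under DMF179.2 (limma, adjusted p = 0.000877) and by 0.21 ± 0.0558 under the combination (adjusted p = 0.0289). The latter call ended without combination replicate 34 (0.2004) or 36 (0.1925), or without vehicle replicate 1 (0.1725) or 2 (0.1886). With the hybridisation control signal as a covariate, the Mgst1 combination change was 0.1156 (limma, adjusted p = 0.654), and that of Mgst1 under DMF179.2 was 0.1852 (adjusted p = 0.151). The Gstk1 call under the combination ended too (adjusted p = 0.293), with a change of 0.6615 that was close to the 0.68 without the covariate.

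**Figure D3:**
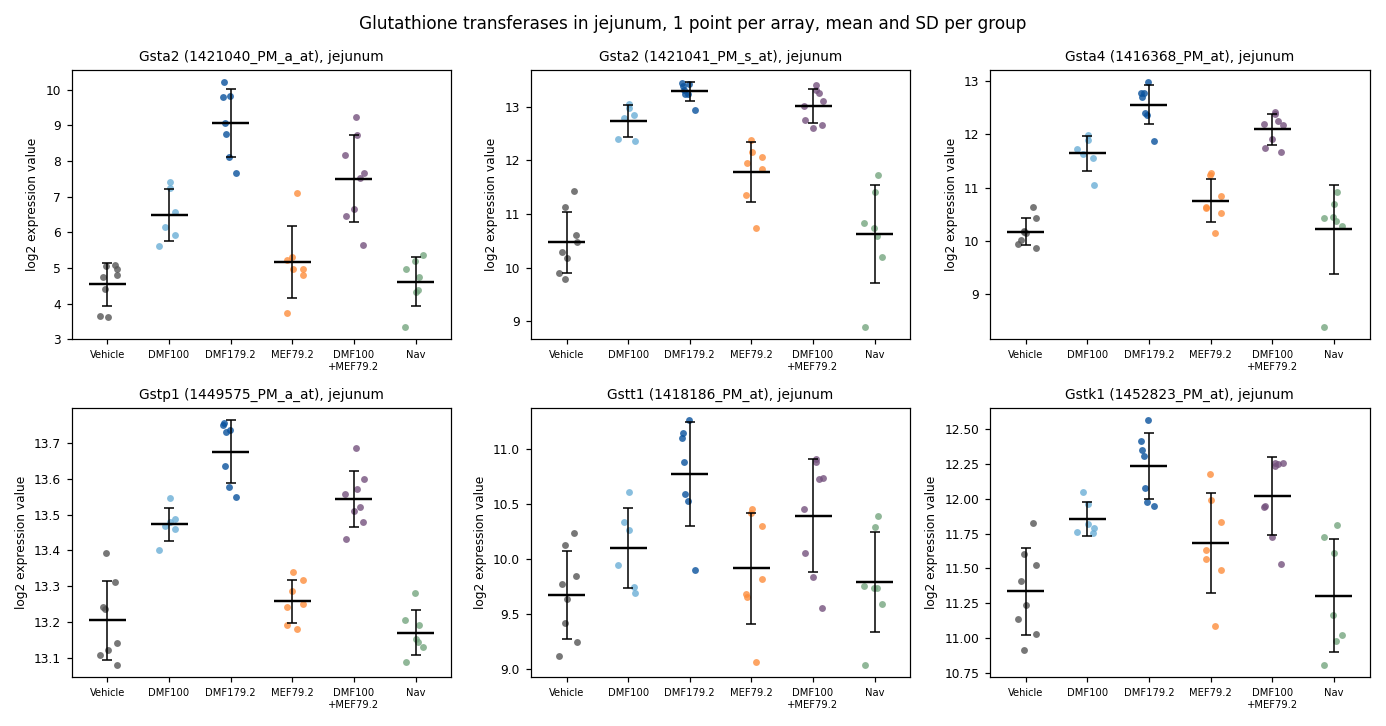
Log2 expression of 6 member probe sets in jejunum, 1 point per array by group, with the mean (bar) and SD (error bar); each panel has its own axis. Gsta2 and Gsta4 arrays under DMF100, DMF179.2 and the combination lie above all vehicle arrays, and MEF79.2 arrays overlap them.

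Dose was compared directly within jejunum. DMF179.2 exceeded DMF100 in 5 of 11 member probe sets, against 6.53% of all probe sets. The differences were 2.57 ± 0.482 for Gsta2 1421040_PM_a_at (limma, adjusted p = 0.00138), 0.91 ± 0.244 for Gsta4 (adjusted p = 0.0144), 0.20 ± 0.0476 for Gstp1 (adjusted p = 0.00665), 0.34 ± 0.0732 for Gstt3 (adjusted p = 0.00368) and 0.19 ± 0.0602 for Gsto1 1416531_PM_at (adjusted p = 0.0375). In jejunum 1421040_PM_a_at passed the filter through its treated arrays, so its differences are not exact folds and its p-values give no support of their own. For 1421041_PM_s_at the difference was 0.55, with an interval of -0.03 to 1.13. The Gsto1 call ended without DMF100 replicate 13, 15 or 16, or DMF179.2 replicate 18, 19 or 21, with differences of 0.1554 to 0.1814.
Adding MEF79.2 to DMF100 gave no call by limma among 11 member probe sets in jejunum (0.244% of all), and 2 were higher at an unadjusted p under 0.05. The differences ran from 0.00 to 1.02. For Gsta4 the difference was 0.45, with an interval of -0.03 to 0.93. DMF179.2 against the combination, which have equal total mass, gave 0 calls for the members by limma and 0% for all probe sets, with 4 members higher at an unadjusted p under 0.05. The widest of these was 1.55 for Gsta2 1421040_PM_a_at, with an interval of 0.64 to 2.46. For Gsta4 it was 0.46, with an interval of 0.00 to 0.92. For none of the members was a departure of the combination, as log2 values, from DMF100 and MEF79.2 added together called by limma (0.25% of all). The departures ran from -1.02 to 0.40, and 1 member was lower at an unadjusted p under 0.05. DMF100 and MEF79.2 differ in dose as well as in compound, and no comparison was made between them.
Markers of gut cells were measured alongside. Of 12 enterocyte marker probe sets, 2 rose and 2 fell under DMF179.2, near the 14.6% and 13.8% over all probe sets. Under the other 3 treatments 0 were called (of all, 0.906% for DMF100, 0.0596% for MEF79.2 and 3.59% for the combination). The summed log2 level was 16.48 to 16.68 in vehicle and 16.52 to 16.7 under DMF179.2. Of 10 goblet, Paneth and enteroendocrine probe sets, 2 rose and 3 fell under DMF179.2, beside the same shares over all probe sets. Pancreatic acinar genes, a possible neighbouring tissue, had 5 of 9 measured genes at the lowest value in vehicle, and the 1 probe set tested rose by 0.468 under DMF179.2. Their part in the changes of the transferases was not tested.

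In kidney Gsta4, Gstp1 and 1 probe set of Gsto1 (1416531_PM_at) rose under all 4 treatments, and the largest change of the fumarate treatments was 0.62, for Gstp1 under DMF179.2. Under DMF100 6 of 11 member probe sets rose (4.15% of all 16763 probe sets), under DMF179.2 9 of 11 (9.82%), under MEF79.2 3 of 11 (8.76%) and under the combination 5 of 11 (16.8%). The median over the members was 0.244, 0.352, 0.0872 and 0.185 in that order, and over all probe sets 0.00352, 0.00928, 0.0178 and 0.0146.
Gstp1 lay at 12.21, 12.29 and 12.53 in 7 vehicle arrays. It lay at 12.69, 12.91 and 12.97 under DMF100, at 12.85, 12.97 and 12.99 under DMF179.2, at 12.76, 12.88 and 13.07 under MEF79.2, and at 12.86, 12.93 and 13.03 under the combination. No treated array overlapped vehicle. The log2 changes were 0.56 ± 0.0443 (DMF100, limma, adjusted p = 1.74e-12), 0.62 ± 0.0443 (DMF179.2, adjusted p = 1.66e-14), 0.57 ± 0.0457 (MEF79.2, adjusted p = 2.1e-12) and 0.62 ± 0.0443 (combination, adjusted p = 2.82e-14).
Gsta4 had the same arrangement. Its vehicle arrays lay at 12.40, 12.63 and 12.76, and those of DMF100 at 13.01, 13.18 and 13.27. Arrays of DMF179.2 lay at 13.10, 13.15 and 13.30, of MEF79.2 at 12.94, 13.11 and 13.15, and of the combination at 13.07, 13.16 and 13.30. All treated arrays were above all vehicle arrays. The changes were 0.54 ± 0.0561 (DMF100, limma, adjusted p = 3.37e-09), 0.54 ± 0.0561 (DMF179.2, adjusted p = 1.55e-09), 0.45 ± 0.0579 (MEF79.2, adjusted p = 6.74e-07) and 0.54 ± 0.0561 (combination, adjusted p = 9.34e-10).
Gsto1 1416531_PM_at also separated completely, from 9.69, 9.80 and 9.88 in vehicle to 9.98, 10.14 and 10.24 (DMF100), 10.06, 10.26 and 10.65 (DMF179.2), 9.92, 10.03 and 10.17 (MEF79.2) and 10.08, 10.30 and 10.37 (combination). The changes were 0.32 ± 0.0543, 0.46 ± 0.0543, 0.24 ± 0.0561 and 0.48 ± 0.0543 in that order, with limma adjusted p of 0.000113, 3.62e-08, 0.00374 and 8.35e-09. The other Gsto1 probe set gave other values. On 1456036_PM_x_at the changes were 0.27 (adjusted p = 0.255), 0.42 ± 0.14 (limma, adjusted p = 0.0314), -0.10 (adjusted p = 0.671) and 0.00 (adjusted p = 0.988). The call under DMF179.2 ended without DMF179.2 replicate 23 (0.3572) or 24 (0.3488), or vehicle replicate 3 (0.4239) or 5 (0.3704). With the mean of both probe sets, the Gsto1 change under MEF79.2 was 0.06723 and no longer called (limma, adjusted p = 0.644). The actin and Gapdh 3' minus 5' difference, a sign of RNA integrity, lay within -0.0423 to 0.0207 of vehicle in the kidney groups, and its part in the disagreement was not tested.

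**Figure D4:**
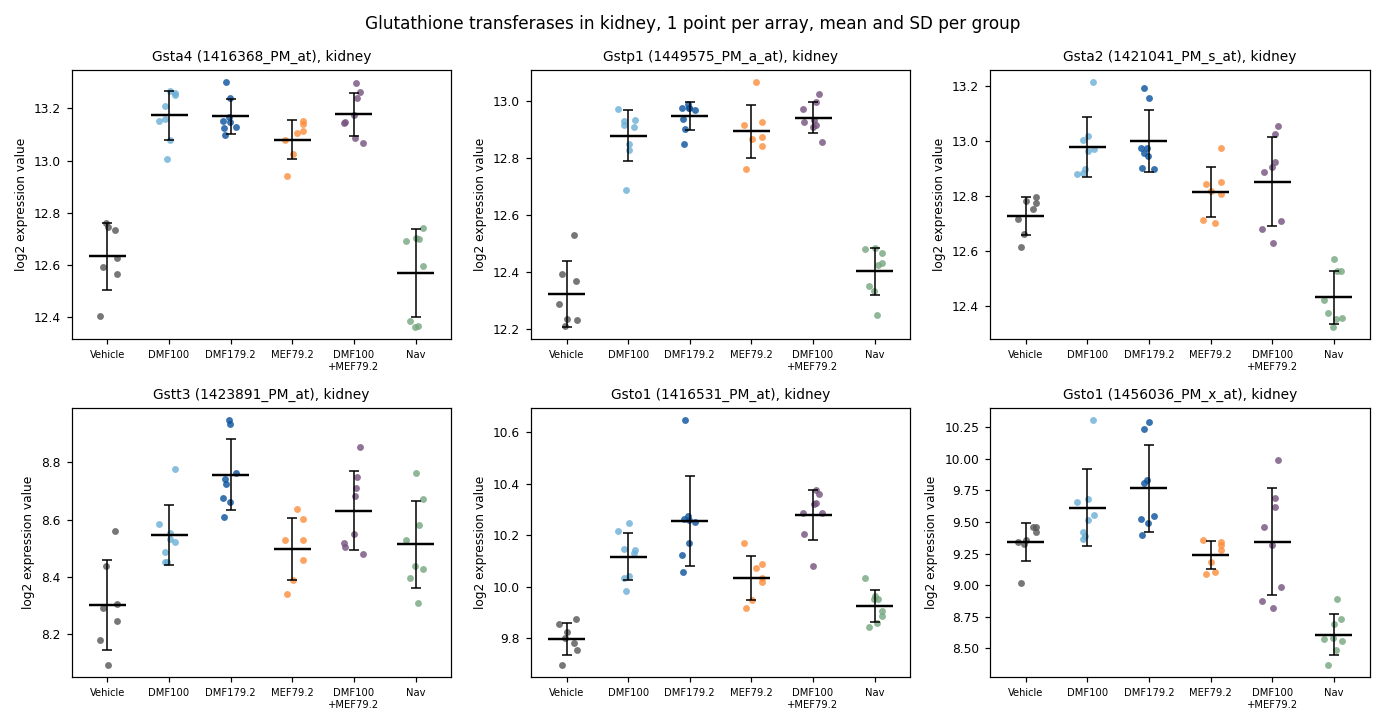
Log2 expression of 6 member probe sets in kidney, 1 point per array by group, with the mean (bar) and SD (error bar); each panel has its own axis. Gsta4, Gstp1 and Gsto1 1416531_PM_at arrays of all 4 treatments lie above all vehicle arrays, while the Gsto1 1456036_PM_x_at groups overlap.

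The remaining kidney members gave smaller changes. Gsta2 rose on both probe sets under DMF100 (0.22 ± 0.0576 and 0.25 ± 0.0575, limma, adjusted p = 0.013 and 0.00392) and DMF179.2 (0.27 ± 0.0576 and 0.27 ± 0.0575, adjusted p = 0.000686 and 0.000767). Under DMF179.2 the arrays lay at 12.79, 12.93 and 13.15 on 1421040_PM_a_at against 12.50, 12.68 and 12.74 in vehicle, without overlap. Under the combination 1421040_PM_a_at rose by 0.24 ± 0.0576 (limma, adjusted p = 0.0016) and 1421041_PM_s_at gave 0.12 (adjusted p = 0.099). Under MEF79.2 they gave 0.17 (adjusted p = 0.0529) and 0.09 (adjusted p = 0.331).
Gstt3 lay at 8.09, 8.29 and 8.56 in vehicle and at 8.61, 8.73 and 8.95 under DMF179.2, where no array overlapped. It rose by 0.46 ± 0.0674 under DMF179.2 (limma, adjusted p = 3.8e-06), by 0.24 ± 0.0674 under DMF100 (adjusted p = 0.0181) and by 0.33 ± 0.0674 under the combination (adjusted p = 0.000326), and gave 0.20 under MEF79.2 (adjusted p = 0.0532). Gstt1 rose by 0.13 ± 0.0433 under DMF179.2 (limma, adjusted p = 0.0388). That call ended without any 1 of DMF179.2 replicates 19, 22, 23 and 24 or vehicle replicates 2, 3 and 4, with changes of 0.1012 to 0.1243. Mgst1 lay at 10.88, 11.06 and 11.15 in vehicle and at 11.18, 11.33 and 11.64 under DMF179.2, without overlap, and rose by 0.35 ± 0.0874 (limma, adjusted p = 0.00401). Gstk1 gave 0.04 to 0.11 and Gstt2 -0.10 to -0.07 over the 4 treatments, none called.
No difference between the DMF doses was called in kidney. DMF179.2 minus DMF100 gave 0 calls among 11 members by limma (0.781% of all), with 2 higher at an unadjusted p under 0.05. The difference was 0.00 for Gsta4, with an interval of -0.11 to 0.11, and 0.07 for Gstp1, with an interval of -0.02 to 0.15. Adding MEF79.2 to DMF100 raised 1 of 11 (8.01% of all rose), Gsto1 1416531_PM_at by 0.16 ± 0.0525 (limma, adjusted p = 0.0334). This call ended without any 1 of DMF100 replicates 9, 10, 12 and 16 or combination replicates 34, 37, 38 and 39. With both Gsto1 probe sets averaged the difference was -0.05212. The call also ended with no filter, arrays centred on their median, array weights and groups compared alone. DMF179.2 exceeded the combination for 1 of 11 (5.89% of all), Gsto1 1456036_PM_x_at by 0.42 ± 0.135 (limma, adjusted p = 0.039), and this ended without any 1 of DMF179.2 replicates 19, 21, 23 and 24 or combination replicates 37, 38 and 39. With array weights the difference was 0.1827 (limma, adjusted p = 0.29). This call ended too with no filter, probe sets averaged, the hybridisation control covariate and groups compared alone.
As log2 values, the combination fell short of DMF100 and MEF79.2 added together for 2 of 11 members (0.483% of all). The departure was -0.44 ± 0.0793 for Gsta4 (limma, adjusted p = 0.00141) and -0.51 ± 0.0626 for Gstp1 (adjusted p = 1.38e-06). The changes under DMF100, MEF79.2 and the combination were 0.56, 0.57 and 0.62 for Gstp1, and 0.54, 0.45 and 0.54 for Gsta4.
Of 12 proximal tubule marker probe sets, 2 rose under DMF100 (4.15% of all) and 3 rose under MEF79.2 (8.76%). Under DMF179.2 4 rose (9.82%) and 3 fell (6.25%), and under the combination 5 rose (16.8%) and 1 fell (12%). Their summed log2 level was 15.32 to 15.39 in vehicle and 15.12 to 15.38 under DMF179.2. Of 15 distal nephron probe sets, 8 fell under the combination (12% of all), and 4 fell (4.62%) and 2 rose (8.76%) under MEF79.2. Their part in the changes of the transferases was not tested.

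The responses in jejunum and kidney were set against each other by an interaction test over 14862 probe sets tested in both. Members differed in 4 cases under DMF100 (0.632% of all), in 5 under DMF179.2 (17.4%), in 2 under MEF79.2 (1.9%) and in 6 under the combination (14.4%). The alpha class responded more in jejunum under DMF100, DMF179.2 and the combination. Under MEF79.2 only Gsta2 1421041_PM_s_at did (1.22, limma, adjusted p = 0.00892). There Gsta4 differed by 0.14 (limma, adjusted p = 0.821) and Gsta2 1421040_PM_a_at by 0.46 (adjusted p = 0.642). Under DMF179.2 the jejunum response exceeded that of kidney by 4.25 ± 0.449 for Gsta2 1421040_PM_a_at (limma, adjusted p = 1.64e-11), 2.53 ± 0.271 for 1421041_PM_s_at (adjusted p = 1.97e-11) and 1.84 ± 0.232 for Gsta4 (adjusted p = 5.69e-09). The first of these passed the jejunum filter only through its treated arrays, so its difference is not an exact fold. Its p-values and its place in these counts give no support of their own. Gstt1 (0.97 ± 0.232, limma, adjusted p = 0.00188) and Gstk1 (0.83 ± 0.16, adjusted p = 0.000132) also responded more in jejunum.
Gstp1 was the reverse under 3 of the 4 treatments. The jejunum response minus the kidney response was -0.29 ± 0.063 under DMF100 (limma, adjusted p = 0.00558), -0.52 ± 0.0626 under MEF79.2 (adjusted p = 1.18e-08) and -0.28 ± 0.0606 under the combination (adjusted p = 0.000972). Gsto1 1416531_PM_at differed the same way under the combination (-0.23 ± 0.0763, limma, adjusted p = 0.0332), a call that ended when arrays were centred on their median (adjusted p = 0.068). The difference of Gsta2 1421040_PM_a_at under DMF100 (1.73, limma, adjusted p = 0.0489) ended with a trended robust variance (1.729, adjusted p = 0.0532) and with arrays centred on their median (1.713, adjusted p = 0.0593). Vehicle levels also differed. Gsta2 and Gsta4 stood at a higher percentile in kidney than in jejunum, and Gstp1 stood lower in kidney (98.8th) than in jejunum (99.5th). The part of the starting level in these differences was not tested.

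In MLN 4 of 8 tested members rose under DMF179.2 (5.22% of all 16663 probe sets) and 3 of 8 under the combination (7.55%). None was called under DMF100 by limma (1.8% of all, and 2 members higher at an unadjusted p under 0.05), and 1 of 8 fell under MEF79.2 (3.03% of all fell). The members' median change was 0.291 under DMF179.2 and 0.242 under the combination, where all probe sets had 0.0128 and 0.041.
Gsta4 lay at 7.03, 7.64 and 8.65 in 8 vehicle arrays and at 7.79, 8.79 and 9.97 under DMF179.2, with 4 of 8 arrays above the highest vehicle array. It rose by 1.05 ± 0.27 under DMF179.2 (limma, adjusted p = 0.0153) and by 0.89 ± 0.292 under the combination (adjusted p = 0.0424), where the call ended with no filter (adjusted p = 0.0759). Gstk1 lay at 8.58, 9.02 and 9.55 in vehicle and 9.10, 9.64 and 10.01 under DMF179.2, overlapping in 4 of 8 arrays, and rose by 0.55 ± 0.158 (limma, adjusted p = 0.0282). Without DMF179.2 replicate 23 neither passed, with changes of 0.8882 for Gsta4 (limma, adjusted p = 0.0545) and 0.4923 for Gstk1 (adjusted p = 0.079).
Gstp1 and Gstt1 separated better. Gstp1 lay at 11.70, 11.83 and 11.94 in vehicle and at 12.03, 12.04 and 12.16 in the 6 combination arrays, without overlap. It rose by 0.23 ± 0.0462 under the combination (limma, adjusted p = 0.00251) and by 0.23 ± 0.0428 under DMF179.2 (adjusted p = 0.00115). Gstt1 lay at 8.55, 8.78 and 8.88 in vehicle, at 8.95, 9.07 and 9.26 under DMF179.2 and at 9.02, 9.11 and 9.65 under the combination, with no overlap. It rose by 0.35 ± 0.0833 (DMF179.2, limma, adjusted p = 0.01) and 0.46 ± 0.0899 (combination, adjusted p = 0.00205).
The fall under MEF79.2 was on Gsto1 1456036_PM_x_at, from 8.13, 8.51 and 8.82 to 7.65, 7.86 and 8.27, with overlapping groups. The change was -0.53 ± 0.154 (limma, adjusted p = 0.041), while 1416531_PM_at gave -0.02. The call ended with no filter (limma, adjusted p = 0.07), with probe sets averaged (0.128), with arrays centred (0.0549), with groups fitted in pairs (0.0623) and with the hybridisation covariate (0.101). The 3' minus 5' difference lay within -0.0593 to 0.0521 of vehicle in the MLN groups, and its part was not tested. Adding MEF79.2 to DMF100 raised 1 member of 8 (3.54% of all), Gstt2 by 0.26 ± 0.0692 (limma, adjusted p = 0.0194), a call that ended with groups fitted in pairs (0.2557, adjusted p = 0.0748).
Under DMF179.2 5 of 9 B cell marker probe sets in MLN fell, against 2.15% of all. Their median change was -0.329, and their summed log2 level was 13.88 to 14.19 in vehicle and 13.18 to 14.07 under DMF179.2. Of 10 macrophage and dendritic cell probe sets 1 rose (5.22% of all), and 0 of 12 adipocyte probe sets were called (7.36%). The adipocyte summed level was 14.49 to 15.36 in vehicle and 14.76 to 15.38 under DMF179.2. The part of these markers in the members' changes was not tested. Against MLN, the jejunum response to DMF179.2 was larger for 3 members (15.6% of all 14839 probe sets differed): Gsta4 by 1.33 ± 0.36 (limma, adjusted p = 0.00731), Gstp1 by 0.24 ± 0.0599 (adjusted p = 0.00341) and Gstt1 by 0.75 ± 0.243 (adjusted p = 0.0261).

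In spleen 5 of 8 members rose under DMF179.2, against 15.4% of all 16556 probe sets, and 0 were called by limma under DMF100 (0.924% of all), MEF79.2 (0%) or the combination (0.0242%). Gsta4 lay at 7.27, 7.70 and 8.03 in vehicle and 8.04, 8.53 and 8.96 under DMF179.2, without overlap. Its change was 0.81 ± 0.144 (limma, adjusted p = 0.000479). Gsto1 rose by 0.43 ± 0.102 on 1456036_PM_x_at (limma, adjusted p = 0.0032) and by 0.22 ± 0.0761 on 1416531_PM_at (adjusted p = 0.0312). Mgst1 rose by 0.41 ± 0.0955 (limma, adjusted p = 0.00316), from 9.75, 9.89 and 10.20 in vehicle to 10.19, 10.38 and 10.55, and Gstt1 by 0.31 ± 0.0851 (adjusted p = 0.00814). Gstp1 gave 0.03, with an interval of -0.05 to 0.10.
These spleens differed in cell markers and in RNA integrity. Of 12 erythroid precursor probe sets 9 rose under DMF179.2 (median 1.61), against 15.4% of all. Their summed log2 level was 10.71 to 14.32 in vehicle and 13.68 to 14.7 under DMF179.2. Of 9 B cell probe sets 5 fell, against 12.4% of all. The actin and Gapdh 3' minus 5' difference was 0.196 above vehicle. Their part in the members' changes was not tested.
In brain 1 of 7 members rose under DMF179.2 (0.551% of all probe sets). Mgst1 lay at 8.66, 8.84 and 9.38 in 8 vehicle arrays and at 9.15, 9.58 and 9.89 under DMF179.2, with 6 of 8 arrays above the highest vehicle array. The change was 0.68 ± 0.0994 (limma, adjusted p = 7.21e-05). Under DMF100 it was 0.34 (adjusted p = 0.23), under the combination 0.28 (adjusted p = 0.191) and under MEF79.2 -0.09, and 0 members were called by limma under these 3 treatments (0.308%, 0.308% and 0.35% of all). None of 15 neuron and glia probe sets was called by limma under the 4 treatments (0.308 to 0.611% of all). Their summed level was 14.9 to 14.98 in vehicle and 14.87 to 15.02 under DMF179.2.
In ILN the changes over 8 members ran from -0.24 to 0.55 and in blood over 9 members from -0.35 to 0.59, with no call by limma. Of all probe sets, 1.41% (DMF100), 0.303% (DMF179.2), 0.0364% (combination) and 0.0121% (MEF79.2) were called in ILN, and 0.201%, 0.927%, 0% and 0% in blood. Both Gsta2 probe sets were tested in blood, where 1421040_PM_a_at gave 0.05 to 0.55 and 1421041_PM_s_at gave -0.21 to 0.59.

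**Figure D5:**
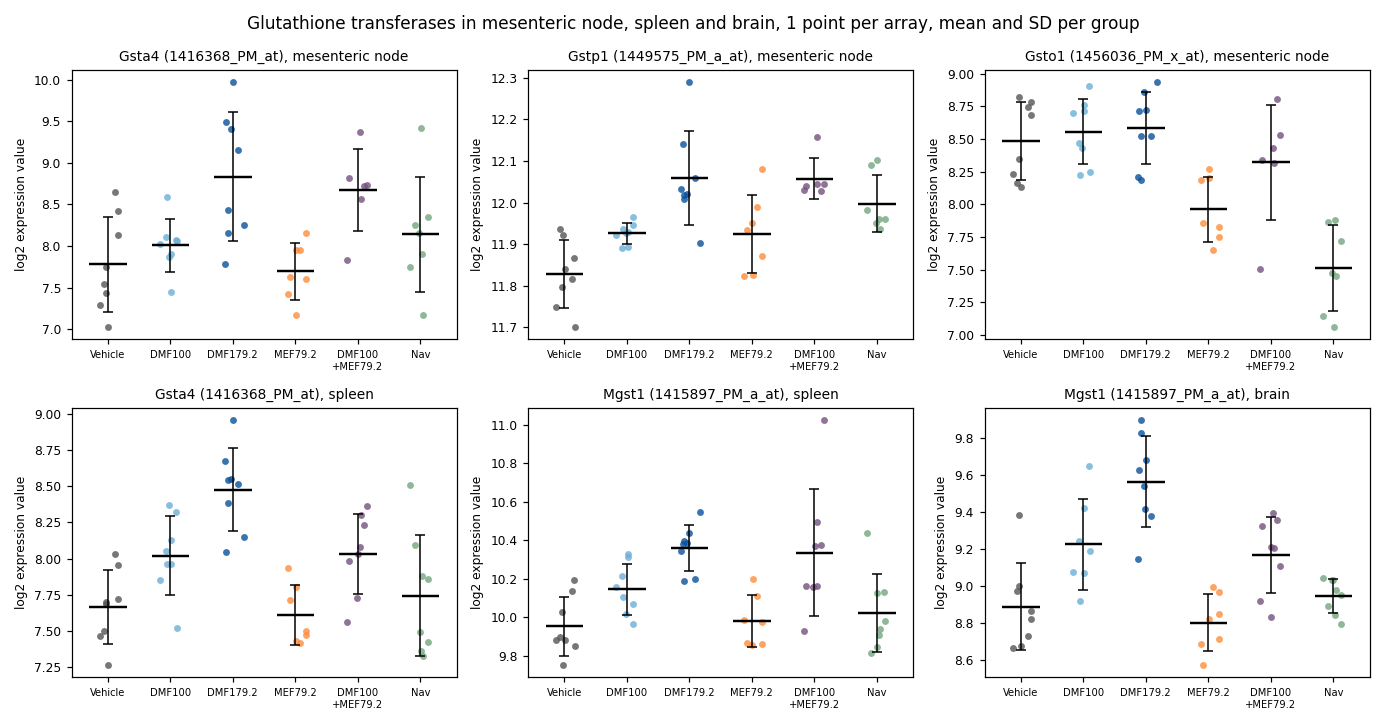
Log2 expression of members in MLN (Gsta4, Gstp1, Gsto1 1456036_PM_x_at), spleen (Gsta4, Mgst1) and brain (Mgst1), 1 point per array by group, with the mean (bar) and SD (error bar); each panel has its own axis. Gsta4 in spleen under DMF179.2 lies above all vehicle arrays, and Mgst1 in brain under DMF179.2 has 6 of 8 arrays above the highest vehicle array.

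The Nav group was set against vehicle only. In jejunum 0 of 11 members were called by limma (10.6% of all), 0 passed an unadjusted p of 0.05, and the changes ran from -0.07 to 0.15. In kidney 4 of 11 members rose (28% of all) and 4 fell (19.9%), so that the rises lie near the share over all probe sets. Gstt2 rose by 0.27 ± 0.0604 (limma, adjusted p = 0.000323), Gstt3 by 0.21 ± 0.0674 (adjusted p = 0.00873), Gstt1 by 0.18 ± 0.0433 (adjusted p = 0.000583) and Gstk1 by 0.13 ± 0.0508 (adjusted p = 0.0392). Gsto1 1456036_PM_x_at fell by 0.73 (limma, adjusted p = 4.56e-05), Mgst1 by 0.37 (adjusted p = 0.000705), and Gsta2 by 0.16 on 1421040_PM_a_at (adjusted p = 0.0242) and 0.30 on 1421041_PM_s_at (adjusted p = 5.84e-05). Gsta4 and Gstp1 gave -0.06 and 0.08.
In MLN 3 of 8 members rose under Nav (27.6% of all) and 2 fell (20.7%), and both counts lie near the shares over all probe sets. Gstt1 rose by 0.71 ± 0.0862 (limma, adjusted p = 1.87e-08), Gstt2 by 0.36 ± 0.0663 (adjusted p = 2.2e-05) and Gstp1 by 0.17 ± 0.0443 (adjusted p = 0.00177). Gsto1 1456036_PM_x_at fell by 0.97 (limma, adjusted p = 2.26e-06) and Mgst1 by 0.56 (adjusted p = 0.00603). The spiked hybridisation controls were 0.235 higher than vehicle in kidney and 0.216 higher in MLN under Nav. Their part in these changes was not tested. In spleen 1 of 8 members fell under Nav, near the 8.21% of all that fell. This member was Gstk1, which fell by 0.23 (limma, adjusted p = 0.0352).

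Members were also compared by how they varied between arrays of the same group. Over the 43 jejunum arrays, with values centred within group, Gstt1 and Gstk1 had a Pearson correlation of 0.869, and Gsta2 1421041_PM_s_at and Gsta4 one of 0.838. The 2 Gsta2 probe sets had 0.183. The genes most like a member in this sense were Gstm7 (0.94), Adh1 (0.936) and Aadac (0.923) for Gstt1. For Gstk1 they were Gstm6 (0.907), Dhrs4 (0.901) and Aadac (0.873), and for Gsta4 Reg3a (0.869), Gsta2 (0.838) and Xylb (0.822). For Gsta2 1421041_PM_s_at they were Gstm6 (0.911), Cyp3a25 (0.859) and Gstm3 (0.859).
Over the 46 kidney arrays, Gsta4 was most like Abcc4 (0.783), Gjb1 (0.754) and Cyp2c23 (0.742). Mgst1 was most like Cyp4a10 (0.887), Mettl7a1 (0.872) and Chchd2 (0.87). Gsto1 1456036_PM_x_at was most like Commd3 (0.905), Suclg2 (0.902) and Mff (0.896). Among members it correlated with Gsta2 1421041_PM_s_at at 0.849 and with Mgst1 at 0.785. With the other Gsto1 probe set, 1416531_PM_at, it had 0.443. For 1416531_PM_at the value was 0.279 with Gsta2 1421041_PM_s_at and 0.318 with Mgst1. All these values share arrays, normalization and RNA, and they describe likeness only.

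The rest of the glutathione pathway was read from lists. Over all probe sets, 0.596% rose in jejunum with DMF100, 14.6% with DMF179.2, 0.0536% with MEF79.2 and 1.93% with the combination, and in kidney 4.15%, 9.82%, 8.76% and 16.8% rose in that order. Of 15 tested probe sets of other glutathione transferases and related membrane proteins in jejunum, 9 rose with DMF100, 11 with DMF179.2, 2 with MEF79.2 and 11 with the combination, with median changes of 1.15, 2.22, 0.643 and 1.6. In kidney 7, 9, 6 and 9 of 15 rose in the same order, with 1 fall each under MEF79.2 and the combination and median changes of 0.176, 0.321, 0.125 and 0.224. Gstm2, a mu class enzyme, rose in jejunum by 1.27, 2.22 and 1.76 under DMF100, DMF179.2 and the combination (limma, adjusted p = 0.000513, 3.47e-10 and 9.98e-08).
Genes that supply glutathione rose in jejunum in 3 of 12 probe sets with DMF100, 8 with DMF179.2, 0 with MEF79.2 and 4 with the combination, with 1 fall each under DMF100 and DMF179.2. Gss, glutathione synthetase, rose by 0.59 (DMF100), 0.99 (DMF179.2) and 0.69 (combination) there, with limma adjusted p of 1.71e-05, 6.88e-12 and 5.96e-08. In kidney 5, 7, 5 and 6 of 11 rose. Gsr, glutathione reductase, rose in kidney by 0.63 (DMF100), 0.94 (DMF179.2), 0.81 (MEF79.2) and 0.90 (combination) (limma, adjusted p from 2.34e-05 to 1.02e-09).
Genes that export glutathione conjugates or process them to mercapturates rose in jejunum in 1 (DMF100), 9 (DMF179.2), 0 (MEF79.2) and 3 (combination) of 16 probe sets, with 1 fall under DMF179.2. Abcc3, a basolateral conjugate transporter, rose by 0.96, 1.41 and 1.16 under DMF100, DMF179.2 and the combination (limma, adjusted p = 4.8e-06, 4.43e-11 and 6.68e-09). In kidney 2, 3, 2 and 5 of 18 rose and 3 fell under each treatment, where 3.16%, 6.25%, 4.62% and 12% of all probe sets fell, so that several of these counts lie near the share over all probe sets. Abcc2, an apical conjugate transporter, rose there by 0.42 to 0.51, and Abcc4 by 0.47 to 0.71. Acy1, an aminoacylase that removes acetyl groups from mercapturates, fell by 0.44 (DMF100), 0.68 (DMF179.2), 0.47 (MEF79.2) and 0.58 (combination), with limma adjusted p from 0.00598 to 9.37e-06.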

How the data were processed

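The authors deposited log2 expression values for 45141 probe sets in 308 arrays. The submitters' processing notes name RMA, GCRMA, R 2.11.1 and limma 3.4.5, and the sources used here do not give which tool did which step. Titles set the groups, because another label gives DMF100 and the combination identical text. The values were used as deposited, and all arrays of a tissue shared 1 lowest value, which differed between tissues.

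Of the probe sets, 29449 were named, 28898 of them with 1 symbol; 551 had several and 15692 were unnamed, and both kinds were left out. Within a tissue, 1 mean per group was fitted over the 6 groups (limma 3.58.1, R 4.3.3). A probe set was tested where 5 or more arrays exceeded the 50th percentile of the tissue, and p-values were Benjamini-Hochberg adjusted over all of them for each contrast. Intervals are 95%. Promoter counts and figures were made with Python 3.11.15, pandas 2.3.3 and matplotlib 3.10.9. The fit was tested on simulated data.

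The members, gene lists and tests were chosen with earlier results of these data known. Values per array are given for members called under at least 1 treatment, and other members by range. From each other list, up to 4 probe sets with the smallest adjusted p under DMF179.2 could be named, and for likeness the 3 genes with the highest correlation. Alternatives were the filter, quantile normalization or centring of the arrays, array weights, a trended variance, 1 probe set per gene or their mean, the hybridisation controls as a covariate, groups fitted alone, arrays left out and the replicate number as a block. No deposited column was left unused.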

Additional observations from a re-analysis of the deposited data

Results flagged for a closer look

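The jejunum and kidney responses to a treatment differed by the interaction test for 17 combinations of member and treatment. Each value is the jejunum log2 change minus the kidney log2 change. Under DMF100 the values were 1.729 for Gsta2 1421040_PM_a_at, 2.002 for Gsta2 1421041_PM_s_at, 0.9257 for Gsta4 and -0.2874 for Gstp1. Under DMF179.2 they were 4.246 and 2.533 for the same Gsta2 probe sets, 1.844 for Gsta4, 0.9708 for Gstt1 and 0.827 for Gstk1. Under MEF79.2 they were 1.217 for Gsta2 1421041_PM_s_at and -0.5176 for Gstp1. Under the combination they were 2.728 and 2.41 for the Gsta2 probe sets, 1.376 for Gsta4, -0.2801 for Gstp1, -0.2269 for Gsto1 1416531_PM_at and 0.6473 for Gstk1. Gsta2 1421040_PM_a_at passed the jejunum filter through its treated arrays, so its values are not exact folds and its place in this count gives no support of its own.

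The jejunum response to DMF179.2 also exceeded the MLN response, by 1.329 for Gsta4, 0.241 for Gstp1 and 0.7464 for Gstt1. Of all 14839 probe sets tested in both of these tissues, 15.6% differed.

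Single arrays lay far from the rest of their group in 8 of 89 groups of members, where chance gives about 1 in 20 (5%). Gsta2 1421041_PM_s_at was 12.93 in jejunum DMF179.2 replicate 24, with the next array at 13.24. Kidney DMF100 replicate 12 was the highest of its group for Gsta2 1421041_PM_s_at at 13.21 (next 13.02) and for Gstt3 at 8.777 (next 8.587). Gsta2 1421040_PM_a_at was 13.15 in kidney DMF179.2 replicate 24 (next 12.95), and Gsto1 1416531_PM_at was 10.65 in kidney DMF179.2 replicate 23 (next 10.27). Gsto1 1456036_PM_x_at was 9.022 in kidney vehicle replicate 5 (next 9.324). Gstp1 was 12.16 in the MLN combination replicate 35 (next 12.05). Mgst1 was 9.384 in brain vehicle replicate 6 (next 8.999), which is the vehicle array that overlaps the DMF179.2 arrays.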

How the results depend on the processing

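Low signal limits some members: Mgst1 1415898_PM_at was at the lowest value in 306 of 308 arrays and Gsta2 1421041_PM_s_at in 172, and outside kidney, jejunum and blood neither Gsta2 probe set passed the filter. Counts of calls are given here as reported first, then under the alternative. Kidney contrasts between treatments went from 4 to 2 with no filter, with array weights and with probe sets averaged per gene. MLN against vehicle went from 8 to 5 with no filter and to 5 with groups compared alone, and MLN contrasts between treatments from 1 to 2 with a filter at the 70th percentile, 2 with a trended robust variance and 6 with array weights. Array weights gave 1 call in ILN (from 0), 6 in brain against vehicle (from 1) and 1 in brain between treatments (from 0). The share of all probe sets called against vehicle moved too. Per treatment it was 0.308 to 0.611% in brain at first and 1.14 to 5.85% with array weights. In ILN these shares were 0.0121 to 1.41% and 0.0849 to 4.5%. In MLN they were 1.8 to 11.2% at first and 0.706 to 4.43% with no filter. Such shares were not counted for contrasts between treatments. Spleen contrasts between treatments went from 0 to 4 with array weights, 2 with the mean of probe sets, 7 with the hybridisation control covariate and 4 without the Nav replicate 40 array of lowest correlation. The cause of these shifts was not tested.

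Leaving out each of 36 vehicle and treated arrays in turn gave 19 to 25 calls against vehicle in jejunum (4 to 6 between treatments), and each of 38 gave 21 to 27 in kidney (2 to 8). Leaving out 10 arrays of blood in turn gave 0 to 0 (0 between treatments), and 16 vehicle and DMF179.2 arrays of brain 1 to 3 (0 to 1). The brain arrays and the arrays of lowest correlation were chosen for this after seeing the data. MLN without DMF179.2 replicate 23 gave 7 calls against vehicle and 2 between treatments. Refits with an array left out covered 64 single calls in 2023 comparisons, of which 1969 kept the call and 54 lost it. The losses were uneven, with 12 of 36 refits for Gsta2 1421041_PM_s_at in jejunum under MEF79.2. Each MLN call was redone only without DMF179.2 replicate 23. The single calls kept with direction were 58 of 69 with no filter, 62 of 69 with the hybridisation control covariate, 63 of 69 with the mean of probe sets, 65 of 69 with array weights, 68 of 69 after quantile normalization and 57 of 67 with groups alone. With no filter 11 single calls ended, among them the Gsta2 1421040_PM_a_at call in jejunum under DMF100, the Gsta4 call in MLN under the combination and the Gsto1 1416531_PM_at call in spleen. The 1 reversal was Gsto1 1416531_PM_at in kidney, combination minus DMF100, at -0.05212 with the mean of probe sets.

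Replicate numbers are shared across tissues, but jejunum and kidney arrays of the same number deviated together only in part (Pearson -0.0771 to 0.535 over 42 pairs, 28 above 0.1, and 17 best with their own number), as did jejunum and MLN arrays (-0.107 to 0.527 over 40 pairs, 32 above 0.1, 17 best with their own number), so pairing was not assumed. With the replicate block the jejunum and kidney comparison gave 17 calls in all and the jejunum and MLN comparison went from 3 to 7. Of the 20 single differences called without the block, 19 were called with it, and Gsta2 1421040_PM_a_at under DMF100 in jejunum minus kidney (1.81) was not.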

Other observations

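Genes outside the family that are known targets of NRF2 were counted in MLN as well. Of 19 tested probe sets, 18 rose under DMF179.2, 15 under the combination, 3 under DMF100 and 1 under MEF79.2, with medians of 0.518, 0.549, 0.242 and 0.0878 against medians over all probe sets of 0.0128, 0.041, 0.0246 and 0.0128. Of all MLN probe sets 5.22%, 7.55%, 1.3% and 1.6% rose in that order. In kidney 20, 20, 19 and 16 of 23 rose in the same order, against 9.82%, 16.8%, 4.15% and 8.76% of all probe sets. In jejunum 14, 13, 8 and 3 of 21 rose, against 14.6%, 1.93%, 0.596% and 0.0536% of all, with 2 falls under DMF179.2 (13.8% of all fell).

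In MLN, 8 of 13 probe sets of the other glutathione transferases rose under DMF179.2 and 7 rose and 1 fell under the combination, while 2 rose under DMF100 and 0 were called by limma under MEF79.2. Of 8 probe sets for glutathione supply, 5 rose under DMF179.2 and 2 under the combination. Export and mercapturate genes rose in 2 of 16 probe sets under DMF179.2 (5.22% of all rose) and 4 under the combination (7.55%).

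In kidney under Nav, the supply list had 3 rises and 5 falls in 11 probe sets, where 28% of all rose and 19.9% fell, so that the rises lie near the share over all probe sets. The probe sets of Pgd, an enzyme of NADPH supply, disagreed, with 0.30, -0.34 and -0.39 (limma, adjusted p = 0.000305, 9.2e-05 and 4.89e-05).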
